A study of Rattus norvegicus and Mus musculus with 251 samples.

Results

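Regulators of G protein signalling (RGS proteins) were followed through 8 genes of the mouse count table, chosen by symbol: Rgs2, Rgs4, Rgs7, Rgs8, Rgs9, Rgs10, Rgs14 and Rgs16. Each symbol matched 1 row, so that 8 of the 46078 genes in the table are described. The mice were of the inbred strain C57BL6J and drank either saline or a morphine solution, and no age is given in the labels. Each group held females and males. The groups were saline, chronic morphine, 24 h after morphine and 2 weeks after morphine, with 6, 8, 9 and 7 libraries from the prefrontal cortex (PFC) and 7, 8, 9 and 8 from the nucleus accumbens (NAc), the ventral part of the striatum. RNA came from tissue punches of 0.5 mm, and paired reads of 75 bases were sequenced from total RNA. The labels call the cell type neuron, but markers of astrocytes, oligodendrocytes, microglia and blood vessel cells were present in each region, so the values are those of whole tissue. In such bulk samples, fewer cells of a type and less RNA per cell cannot be told apart. The labels do not say that each library is a separate animal, so p-values measure the spread between these libraries.

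RGS proteins shorten G protein signals. A receptor such as the mu opioid or dopamine receptor loads a G alpha subunit with GTP, and the RGS domain speeds up the hydrolysis of that GTP, which returns the G protein to rest. Rgs2, Rgs4, Rgs8 and Rgs16 belong to the R4 family, small proteins that consist of little more than the RGS domain. Rgs7 and Rgs9 belong to the R7 family, which works as a stable complex with the G beta subunit encoded by Gnb5. Rgs10 and Rgs14 belong to the R12 family, and Rgs14 carries a further motif that binds inactive G alpha subunits. Rgs9 has a retinal and a striatal splice form, and the striatal form is known to restrain signals of opioid and dopamine receptors. Counts per gene do not separate these forms.

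The starts of the coding sequences are shown because they differ between members of the R4 family in the second codon, whose residue can mark a protein for degradation. Proteins that begin with methionine and then cysteine can be degraded through the N-end rule pathway once the methionine has been removed, and RGS4 and RGS16 are known substrates. The first 30 coding bases of the principal coding transcript of each gene follow (GENCODE M21 annotation of GRCm38, 5′ to 3′), with the second codon in capitals.
Rgs2: atgCAAagtgccatgttcctggctgtccag
Rgs4: atgTGCaaaggacttgcaggtctgccggct
Rgs8: atgGCTgccttactgatgccacgcaggaac
Rgs16: atgTGCcgcaccctagccaccttccccaac
Rgs7: atgGCTcagggaaataattatggacagacc
Rgs9: atgACGatccgacaccaaggccagcagtac
Rgs10: atgTTCacccgcgccgtgagccgactgagc
Rgs14: atgCCAgggaagcccaagcacttgggtgtc
The cysteine codon TGC stands in second place in Rgs4 and Rgs16 and in neither of the other R4 members. No protein was measured here.

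By the same annotation, 5 of the 8 genes lie on chromosome 1, and all 8 are protein-coding. These are Rgs2 (ENSMUSG00000026360, 143999338 to 144004161), Rgs8 (ENSMUSG00000042671, 153653025 to 153700323), Rgs16 (ENSMUSG00000026475, 153740349 to 153745468), Rgs4 (ENSMUSG00000038530, 169741477 to 169747642) and Rgs7 (ENSMUSG00000026527, 175059087 to 175492500). Rgs8 and Rgs16 are neighbours, 40025 bases apart with 2 other annotated genes between them. Rgs9 (ENSMUSG00000020599) lies on chromosome 11 at 109225355 to 109298129, Rgs10 (ENSMUSG00000030844) on chromosome 7 at 128373621 to 128418758 and Rgs14 (ENSMUSG00000052087) on chromosome 13 at 55369732 to 55384687. The strand setting of the counting is not given in the sources used here. Rgs8 and Rgs16 each overlap an annotated antisense gene, and Rgs7 and Rgs10 each overlap a further gene on their own strand, so some of their reads cannot be assigned with certainty.

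The dissections carried the markers of their regions: 7 cortical excitatory neuron markers had a median level of 7.02 log2 CPM in PFC and 2.19 in NAc, and 9 striatal projection neuron markers one of 3.31 and 7.88. Libraries held between 5182601 and 43963295 counts assigned to genes. The lowest belonged to the PFC library numbered 10 (female, 2 weeks), in which 10563 genes were detected against 18166 in the next lowest PFC library, and in which Rgs9, Rgs10 and Rgs16 had 0 counts. PFC number 31 had Ttr, a choroid plexus gene, at 11.62 log2 CPM. NAc numbers 6 (saline) and 25 (chronic) had the lowest striatal marker scores, 4.61 and 4.75 (mean log2 CPM of 9 striatal projection neuron markers), against a median of 7.88. Number 27, labelled female, had the Y-linked Ddx3y at 5.72 in PFC and 6.28 in NAc. NAc number 28, labelled male, held Xist at 4.19 beside Ddx3y at 6.23. Values without single libraries are given beside several results below. The libraries that stand apart, left out together in some of them, include PFC numbers 10, 27 and 31 and NAc numbers 6 and 25. PFC number 25 and NAc number 28 are not among them.

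Per length, Rgs4 was the most abundant of 21 listed RGS genes in each region. Levels between genes are compared here as CPM (counts scaled to library size) per kb of exon. In PFC the median was 192 CPM per kb for Rgs4, which acts on Gi/o and Gq, and the next gene was Rgs5, which is no member, at 24.6. Rgs7 followed with 17.7, Rgs2 with 12.97 and Rgs14 with 10.3. Rgs9 was the lowest member in PFC, at 1.10 CPM per kb.

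In NAc the order was flatter and Rgs9 stood among the higher members. Rgs4 was at 77.3 CPM per kb and Rgs2, a small member that also acts on Gq, at 40.6. The next 4 genes lay close together, with medians of 29.1 for Rgs10, 26.7 for Rgs9, 25.02 for Rgs14 and 23.8 for Rgs8. The spread over libraries was wider than these gaps, from 4.58 to 69.2 CPM per kb for Rgs9 and from 2.97 to 67.7 for Rgs14, so the order of these 4 is not separated. Rgs7 was at 9.36 and Rgs16 was the lowest member, at 4.48.

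**Figure D1:**
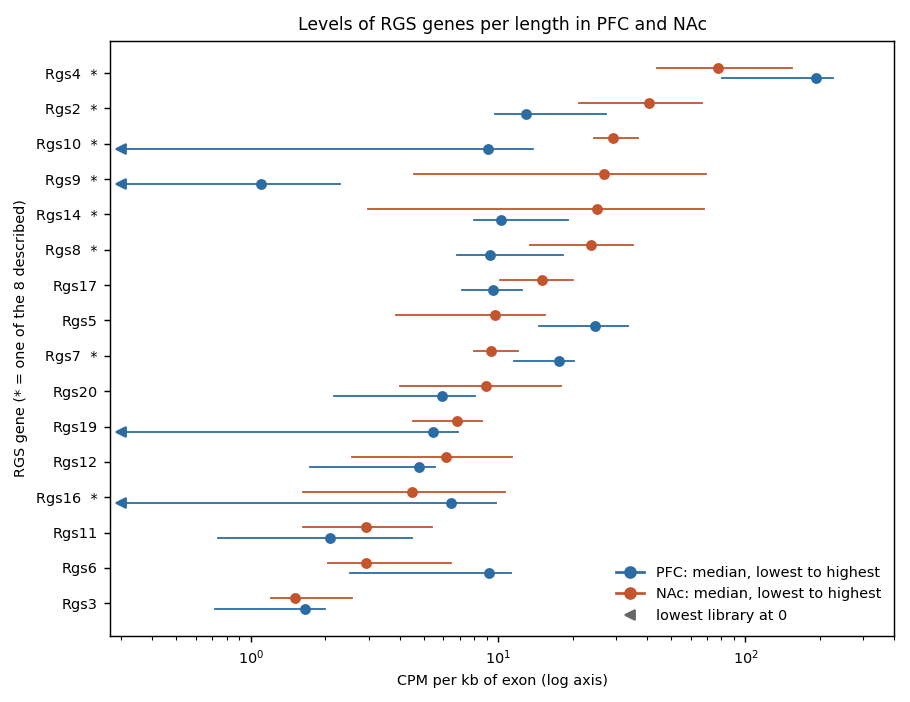
Levels of the RGS genes with a median above 1 CPM per kb of exon in either region. Points are medians over 30 PFC or 32 NAc libraries on a log axis, lines run from the lowest to the highest library, and arrowheads mark a lowest library at 0 counts (PFC number 10). Rgs4 is highest in each region, and Rgs9 moves from 1.10 in PFC to 26.7 in NAc.

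As shares of the summed per-length level of the 8 members, Rgs4 made up a median of 73.4% in PFC and 32.3% in NAc. Rgs9 made up 0.440% in PFC and 10.3% in NAc, and Rgs10 3.67% and 12.5%. Rgs2 took 5.25% in PFC and 16.8% in NAc. Among the 8 members, the mixture of transcripts was thus dominated by 1 gene in PFC and spread over several in NAc. Other RGS genes, such as Rgs5, do not enter these shares.

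The comparison of regions, over all treatments, asked how the members differ in level between NAc and PFC. In it edgeR called all 8 members, 5 higher in NAc and 3 lower, at a Benjamini-Hochberg adjusted p under 0.05. Most genes differ between these tissues: 66.2% of the 19266 genes tested were called in either direction, 36.5% higher and 29.7% lower in NAc, so being called is near the background and the sizes carry the description. The median log2 difference was 1.28 over the 8 members and 0.07 over all genes tested. DESeq2 also called all 8, among 13250 genes that it called in this comparison.

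Among the R4 members, Rgs2 and Rgs8 were higher in NAc. The lowest, median and highest log2 CPM of Rgs2 were 5.14, 5.56 and 6.63 in PFC and 6.27, 7.20 and 7.92 in NAc. Only PFC number 10 reached the range of the NAc libraries, and without the libraries that stand apart the regions did not overlap. The share of all genes without overlap in that smaller set was not counted. Rgs2 differed by a log2 value of 1.58 ± 0.08 (SE; 2.99-fold, edgeR adjusted p = 2.09e-23).

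Rgs8, a brain-enriched regulator of Gi/o signals, ran from 6.05 through a median of 6.48 to 7.46 in PFC and from 7.01 through 7.84 to 8.40 in NAc. In Rgs8, 2 PFC libraries lay within the NAc range and 4 NAc libraries within the PFC range. Its log2 difference was 1.29 ± 0.07 (SE; edgeR adjusted p = 9.53e-22).

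Rgs4 and Rgs16, the R4 members that start with a cysteine codon after the first methionine, were lower in NAc. Rgs4 ran from 7.96 through 9.22 to 9.45 log2 CPM in PFC and from 7.09 through 7.90 to 8.90 in NAc. In Rgs4, 4 PFC libraries came down into the NAc range and 13 NAc libraries reached the PFC range. Its log2 difference was -1.17 ± 0.10 (SE; edgeR adjusted p = 7.84e-16). Rgs16, known for its rhythm in the circadian clock of the hypothalamus, had medians of 3.92 in PFC and 3.40 in NAc. Its ranges overlapped widely, from 3.27 to 4.52 in PFC apart from number 10 and from 1.95 to 4.64 in NAc, and the log2 difference was the smallest of the 8 in size at -0.46 ± 0.14 (SE; edgeR adjusted p = 0.00274). The neighbours Rgs8 and Rgs16 thus differed between the regions in opposite directions.

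Of the R7 pair, Rgs9 was 22.9-fold higher in NAc and Rgs7 was lower. Rgs9 had 1.68 to 3.88 log2 CPM in the PFC libraries other than number 10, with a PFC median of 2.83, and 4.87, 7.42 and 8.79 as lowest, median and highest in NAc. The regions did not overlap in Rgs9. The log2 difference of Rgs9 was 4.52 ± 0.23 (SE; edgeR adjusted p = 5.01e-24), with a 95% interval of 16.7-fold to 31.5-fold.

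Rgs7, a regulator of Gi/o signals present in most neurons, ran from 6.12 through 6.73 to 6.94 in PFC and from 5.60 through 5.82 to 6.18 in NAc. A single PFC library, number 25, fell into the NAc range and a single NAc library, number 24, into the PFC range. Between the regions Rgs7 differed by -0.89 ± 0.04 on the log2 scale (SE; edgeR adjusted p = 1.65e-26), the smallest SE among the members.

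Both R12 members were higher in NAc. Rgs10, a small regulator also known from microglia, had 3.39 to 4.57 log2 CPM in the PFC libraries other than number 10 and 5.39 to 5.98 in NAc, with medians of 3.97 and 5.64. Like Rgs9, Rgs10 did not overlap between the regions, which held for 2 of the 8 members and for 4.3% of the genes tested. Its log2 difference was 1.70 ± 0.11 (SE; edgeR adjusted p = 2.07e-20), and 1.65 without the libraries that stand apart. The mean level of 8 microglia markers had medians of 4.74 log2 CPM in PFC and 5.09 in NAc, 7 of the 8 were called higher in NAc, and its part in the difference of Rgs10 was not tested.

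Rgs14, which limits plasticity in the hippocampus, spread most of all members in NAc. It ran from 5.09 through 5.45 to 6.35 in PFC and from 3.66 through 6.73 to 8.17 in NAc. In 11 NAc libraries Rgs14 was no higher than in the highest PFC library, number 10, and in 3 NAc libraries, numbers 6, 23 and 25, it was below every PFC library. The striatal marker score of these 3 was 4.61, 6.10 and 4.75. The log2 difference was 1.27 ± 0.17 (SE; edgeR adjusted p = 2.91e-09).

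The regions were also compared between the saline groups, as a contrast in the fit over all 62 libraries. The log2 differences of NAc from PFC were then 4.28 ± 0.48 for Rgs9, 1.60 ± 0.23 for Rgs10 and 1.52 ± 0.18 for Rgs2 (SE). The differences were 1.26 ± 0.16 for Rgs8 and 0.79 ± 0.36 for Rgs14 (SE). They were -1.26 ± 0.20 for Rgs4, -0.95 ± 0.08 for Rgs7 and -0.46 ± 0.29 for Rgs16. Of these, Rgs14 (edgeR adjusted p = 0.0759) and Rgs16 (edgeR adjusted p = 0.233) did not pass the threshold.

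**Figure D2:**
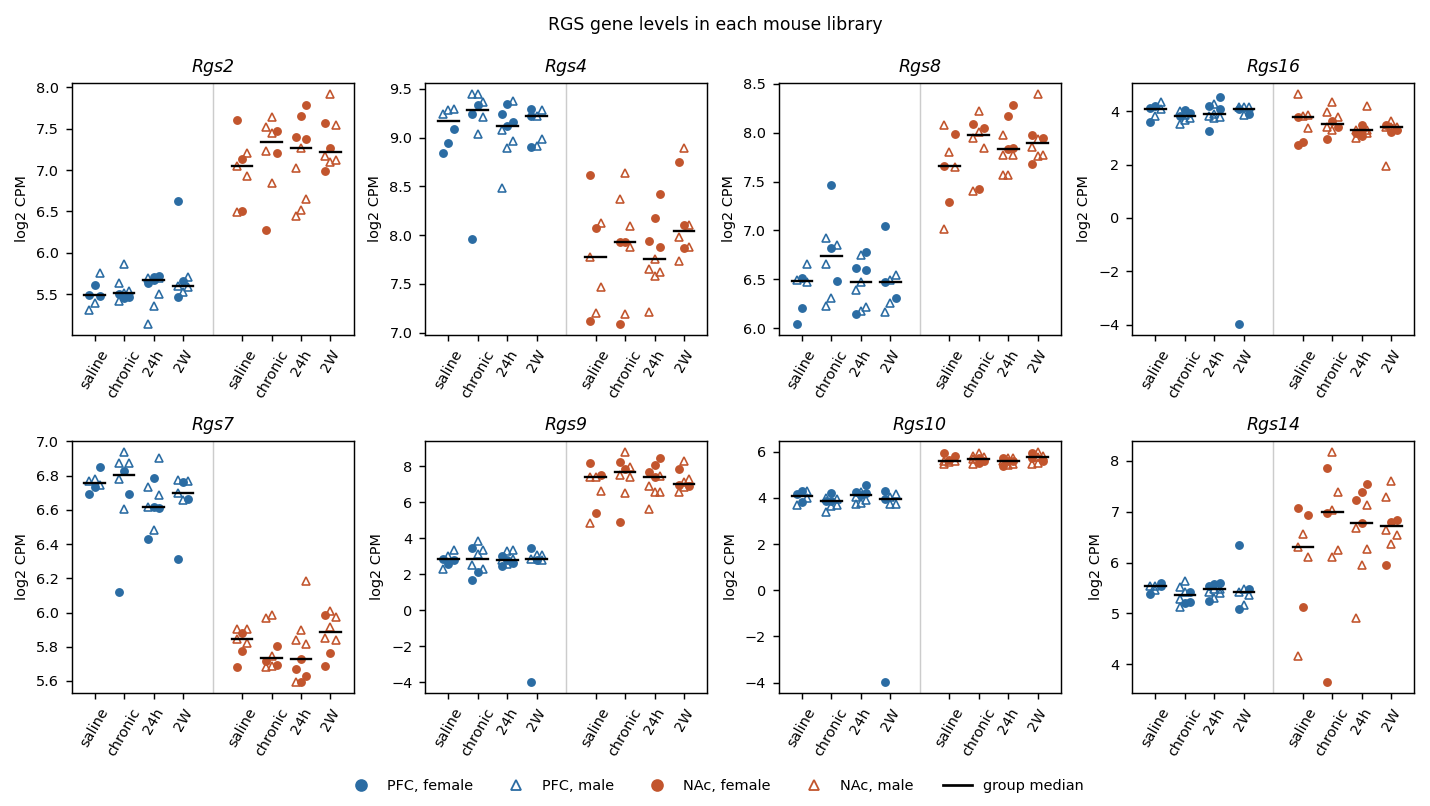
Log2 CPM of the 8 genes in each of 62 mouse libraries by region and treatment, with sex as labelled by symbol and the group median as a bar. Rgs9 and Rgs10 do not overlap between regions, while the 4 treatment groups of a region overlap for every gene. The lowest PFC points of Rgs9, Rgs10 and Rgs16 are number 10 with 0 counts.

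Within NAc, Rgs9 and Rgs14 followed the striatal marker score from library to library. The 9 markers of the score, among them Drd1, Drd2, Adora2a, Ppp1r1b, Tac1, Penk and Pde10a, include no member. Pearson's r with the score over the 32 NAc libraries was 0.976 for Rgs9, 0.964 for Rgs14, 0.884 for Rgs2, 0.848 for Rgs8 and 0.771 for Rgs4. It was 0.326 for Rgs10, -0.184 for Rgs7 and -0.431 for Rgs16. Without numbers 6 and 25, which lie farthest from the median score, r was 0.978 for Rgs9, 0.935 for Rgs14 and -0.248 for Rgs16. The points share their libraries, and the score and the members come from the same counts.

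A fit with treatment, sex and the score together gave the change of each member per unit of score, that is, per doubling of the markers. It was 0.87 ± 0.04 log2 for Rgs9 (SE; edgeR adjusted p = 9.1e-17) and 0.86 ± 0.06 for Rgs14 (SE; edgeR adjusted p = 3.71e-13). Rgs4 changed by 0.30 ± 0.05, Rgs2 by 0.29 ± 0.03 and Rgs8 by 0.22 ± 0.03, while Rgs16 changed by -0.20 ± 0.07 (SE; edgeR adjusted p = 0.0247). Rgs7 at -0.02 ± 0.02 and Rgs10 at 0.04 ± 0.03 did not pass the test. The 6 members called stand beside 43.4% of all genes tested. In PFC without number 10, edgeR called 0 of the 8 slopes and 0.146% of all genes, and Rgs8 had the lowest adjusted p of 0.0780, at 0.98 ± 0.24 log2 per unit over a narrow range of scores.

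**Figure D3:**
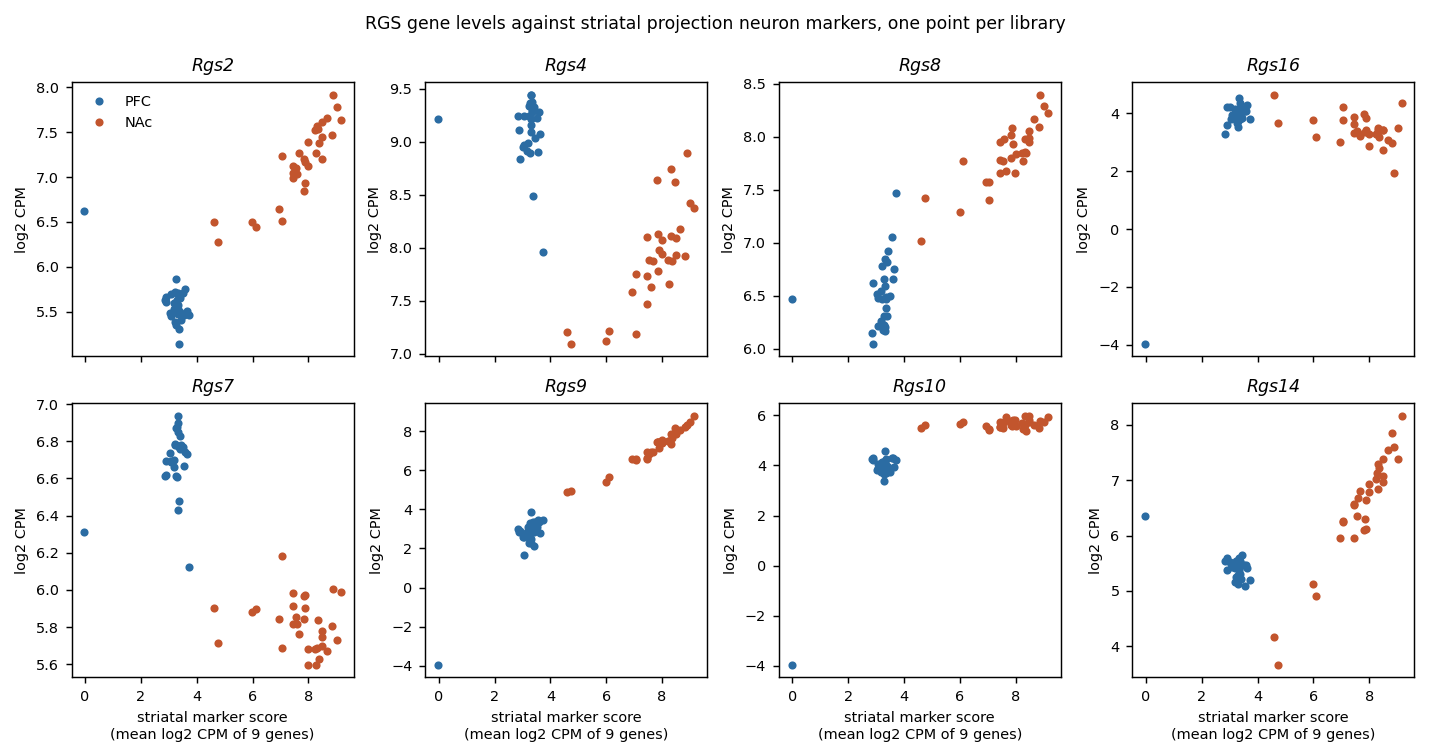
Log2 CPM of each gene against the striatal marker score, 1 point per library. In NAc, Rgs9 and Rgs14 climb with the score across its whole range, while Rgs7 and Rgs10 stay level. The PFC point near a score of 0 is number 10.

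The first treatment comparison asked whether the members differed from saline in PFC under chronic morphine, averaged over the sexes. edgeR called 0 of 8, beside 0.417% of the 17966 genes tested, and DESeq2 also called 0. Only Rgs8 had an unadjusted p under 0.05. The median log2 difference of the 8 was -0.03 and that of all genes 0.01.

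In PFC, Rgs8 had 6.05, 6.48 and 6.66 log2 CPM as lowest, median and highest in saline and 6.22, 6.74 and 7.46 under chronic morphine. The groups overlapped, and the highest value came from number 25. The log2 difference of Rgs8 was 0.39 ± 0.15 (SE; 1.31-fold, 95% interval 1.06-fold to 1.62-fold; p = 0.0144, edgeR adjusted p = 0.470). Without number 25 it was 0.22, and with 2 surrogate variables 0.19. Without number 27 it was 0.48. The value was also 0.48 with that number counted as male, and without the libraries that stand apart. Number 25 also held the lowest PFC values of Rgs4 (7.96) and Rgs7 (6.12) and the highest PFC striatal marker score (3.72). With the score as a covariate, the difference of Rgs8 was 0.37 ± 0.14 (SE; edgeR adjusted p = 0.324). That fit included number 10, whose score was -0.03, and gave Rgs8 a slope of 0.13 ± 0.09 log2 per unit of score (SE). Without number 10 the slope was 0.98 ± 0.24 (SE). Whether the score bears on the difference was not tested without number 10.

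The other members differed little from saline in PFC under chronic morphine, with log2 differences from -0.21 for Rgs10 to 0.02 for Rgs2. The most tightly measured was Rgs7, at -0.07 ± 0.09 (SE), with a 95% interval of 0.835-fold to 1.09-fold. The intervals of Rgs9, Rgs10 and Rgs16 were wide, for example 0.590-fold to 1.71-fold for Rgs9. In the same contrast 13 of 18 immediate early genes, which neurons switch on with activity, fell, with a median of -1.24 over the list. Examples are Fos, at -2.17 ± 0.19 (SE; edgeR adjusted p = 1.13e-07), and Egr2, at -3.35 ± 0.32 (SE; edgeR adjusted p = 1.65e-07). Nr4a1 was at -1.92 ± 0.19 (SE; edgeR adjusted p = 1.65e-07). Rgs2, which neuronal activity is also known to induce, was at 0.02 ± 0.14 (SE; edgeR adjusted p = 0.991), with a 95% interval of 0.832-fold to 1.23-fold.

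At 24 h after morphine in PFC, edgeR called 0 of 8 members and 0.0779% of all genes. No member had an unadjusted p under 0.05 (0 of 8), and DESeq2 called 0. The log2 differences lay between -0.11 for Rgs7 and 0.08 for Rgs8. The median was -0.0048 for the members and 0.01 for all genes tested. The list of immediate early genes had 8 of 18 lower, with Dusp1 at -1.38 ± 0.17, Arc at -1.64 ± 0.21 and Btg2 at -1.19 ± 0.15 (SE; edgeR adjusted p = 6.33e-05 for each).

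At 2 weeks in PFC, edgeR again called 0 of 8, beside 0.00557% of all genes, and DESeq2 called 0. Rgs2 had an unadjusted p under 0.05. It ran from 5.31 through 5.48 to 5.75 log2 CPM in saline and from 5.46 through 5.60 to 6.63 at 2 weeks, with number 10 at the top and 5.71 as the next value. The log2 difference of Rgs2 was 0.30 ± 0.14 (SE; p = 0.0422, edgeR adjusted p = 0.947), and without number 10 it was 0.06. For Rgs10 it was -0.30 ± 0.33 with number 10 and -0.05 without, and for Rgs16 -0.28 ± 0.33 and -0.02 (SE).

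In NAc under chronic morphine, edgeR called 0 of 8 members beside 1.69% of the 18382 genes tested, with 0 at an unadjusted p under 0.05 and 0 by DESeq2. The median log2 difference was 0.09 over the members and -0.01 over all genes. Rgs14 and Rgs9 had the largest differences, and also the largest spread.

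Rgs14 had 4.16, 6.31 and 7.07 log2 CPM as lowest, median and highest in saline NAc and 3.66, 6.999 and 8.17 under chronic morphine. The groups overlapped over most of their range. The log2 difference was 0.74 ± 0.44 (SE; 1.67-fold, 95% interval 0.894-fold to 3.10-fold; edgeR adjusted p = 0.453). It was 0.33 without number 27, 0.40 with that number counted as male, and 1.02 without number 25.

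Rgs9 ran from 4.87 through 7.43 to 8.16 in saline NAc and from 4.92 through 7.68 to 8.79 under chronic morphine. The lowest library of each group was the one with the lowest striatal marker score, number 6 or number 25. For Rgs9 the log2 difference was 0.52 ± 0.44 (SE; 95% interval 0.767-fold to 2.68-fold; edgeR adjusted p = 0.625). It was 0.79 without number 25, 0.28 without number 27 and 0.31 with that number counted as male. The striatal marker score itself had medians of 7.84 in saline and 8.36 under chronic morphine. With the score as a covariate, the difference was 0.02 ± 0.10 for Rgs9 and 0.03 ± 0.15 for Rgs14 (SE), so the SE fell with it as well. Both genes follow the score closely in NAc, so such a fit cannot tell a change in them from a change in the score. The same limit holds at the later times.

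The R4 members and Rgs10 in NAc had smaller differences under chronic morphine. They were 0.21 ± 0.14 for Rgs8, 0.16 ± 0.18 for Rgs2, 0.02 ± 0.22 for Rgs4 and -0.02 ± 0.24 for Rgs16 (SE). Rgs7 at -0.05 ± 0.07 and Rgs10 at -0.01 ± 0.08 were bounded most closely, with 95% intervals of 0.874-fold to 1.06-fold and 0.881-fold to 1.11-fold. Of the 18 immediate early genes 2 fell in this contrast, Fos by 1.15 and Btg2 by 0.56 on the log2 scale (edgeR adjusted p = 0.00201 and 0.0205).

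At 24 h in NAc, edgeR called 0 of 8 and 0.163% of all genes. The count at an unadjusted p under 0.05 was 0, and DESeq2 called 0. Log2 differences lay between -0.26 for Rgs16 (-0.10 without number 6) and 0.48 for Rgs14, which was at 0.06 ± 0.14 (SE) with the score as a covariate. Rgs8 ran from 7.01 through 7.66 to 8.08 log2 CPM in saline and from 7.57 through 7.83 to 8.29 at 24 h, with most libraries of the groups in a shared range. Its log2 difference was 0.20 ± 0.14 (SE; edgeR adjusted p = 0.560), and 0.12 without number 6. With each library left out in turn it lay between 0.12 and 0.30, and that of Rgs16 between -0.38 and -0.04. Fos alone of the immediate early genes fell, by 1.05 (edgeR adjusted p = 0.0176).

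At 2 weeks in NAc, edgeR called 0 of 8 and 0.00544% of all genes, with 0 at an unadjusted p under 0.05 and 0 by DESeq2. Rgs4, the most abundant member, had 7.12, 7.78 and 8.62 log2 CPM as lowest, median and highest in saline and 7.74, 8.04 and 8.90 at 2 weeks. The 2-week libraries lacked the low values seen in saline, but the groups overlapped. The log2 difference of Rgs4 was 0.36 ± 0.22 (SE; 95% interval 0.940-fold to 1.76-fold; edgeR adjusted p = 0.851). Rgs16 ran from 2.73 through 3.78 to 4.64 in saline and from 1.95 through 3.40 to 3.63 at 2 weeks. Its groups overlapped, although no 2-week library reached the saline median. Rgs14 was at 0.46 ± 0.44, Rgs2 at 0.30 ± 0.18 and Rgs16 at -0.30 ± 0.24 (SE). Without the saline library numbered 2, whose striatal marker score was 5.99, Rgs4 was at 0.21, Rgs14 at 0.26, Rgs2 at 0.19 and Rgs16 at -0.09. Without number 6, Rgs14 was at 0.30 and Rgs16 at -0.15. With each library left out in turn, Rgs4 lay between 0.21 and 0.56 and Rgs14 between 0.26 and 0.61. Rgs2 then lay between 0.19 and 0.45 and Rgs16 between -0.40 and -0.09, so other libraries moved the differences the other way. The median was 0.22 over the members and 0.00089 over all genes, and 5 members lay between 0.19 and 0.46 with intervals that include 0. With the striatal marker score as a covariate, these 5 were at 0.18 ± 0.15 for Rgs4, 0.11 ± 0.09 for Rgs2, 0.11 ± 0.09 for Rgs8, 0.02 ± 0.15 for Rgs14 and -0.19 ± 0.10 for Rgs9 (SE), and Rgs16 was at -0.12 ± 0.22.

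**Figure D4:**
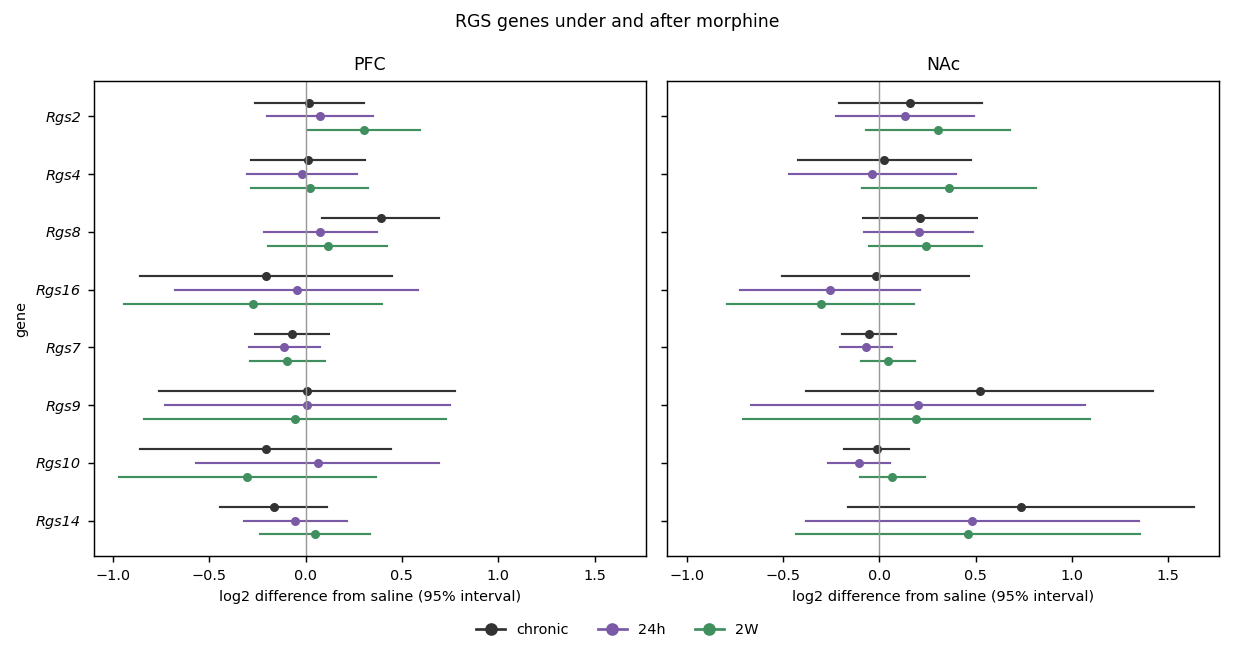
Log2 differences from saline for the 8 genes in PFC and NAc, with 95% intervals from the edgeR fit, at the 3 times. The interval of Rgs8 under chronic morphine and that of Rgs2 at 2 weeks, both in PFC, leave out 0 before adjustment. Intervals of Rgs9 and Rgs14 are widest in NAc, and those of Rgs9, Rgs10 and Rgs16 in PFC, where number 10 has 0 counts.

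Successive times were also compared in the same fits, by contrasts in which the saline groups carry no weight. From chronic morphine to 24 h in PFC, edgeR called 0 of 8 (0.0278% of all genes) and DESeq2 0. Rgs8, at -0.31 ± 0.13 (SE; p = 0.0266, edgeR adjusted p = 0.922), had an unadjusted p under 0.05. This comparison shares the chronic libraries, number 25 included, with the one against saline, and without number 25 the difference was -0.16. With each library left out in turn, the difference of Rgs8 lay between -0.42 and -0.16. From 24 h to 2 weeks in PFC the calls were 0 of 8 with edgeR (0.15% of all genes) and 0 with DESeq2, and 0 members had an unadjusted p under 0.05. Egr2 was the only immediate early gene called from chronic morphine to 24 h in PFC, at 1.60 ± 0.29 (SE; edgeR adjusted p = 0.0315). From 24 h to 2 weeks 10 of 18 immediate early genes rose, with Arc at 1.72 ± 0.20, Btg2 at 1.10 ± 0.15 and Dusp1 at 1.22 ± 0.17 (SE).

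In NAc, edgeR called 0 of 8 from chronic morphine to 24 h (0.087% of all genes), with 0 at an unadjusted p under 0.05 and 0 by DESeq2. From 24 h to 2 weeks edgeR called 0 of 8 (0.267% of all genes) and DESeq2 0. Rgs10 had an unadjusted p under 0.05 there. Its lowest, median and highest log2 CPM were 5.39, 5.59 and 5.75 at 24 h and 5.49, 5.77 and 5.98 at 2 weeks, which overlap. The log2 difference of Rgs10 was 0.17 ± 0.08 (SE; p = 0.0330, edgeR adjusted p = 0.478). In NAc, Klf4 rose by 0.91 from chronic morphine to 24 h and Fos by 0.96 from 24 h to 2 weeks, 1 of the 18 immediate early genes each (edgeR adjusted p = 0.0115 and 0.00820). Of the members, Rgs4 had the largest difference from 24 h to 2 weeks, 0.40 ± 0.21 (SE; edgeR adjusted p = 0.560).

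Whether the effects of morphine on the members differed between the sexes was tested over the 3 times together. In PFC edgeR called 0 of 8 and 0% of all genes. No member had an unadjusted p under 0.05 (0 of 8), and DESeq2 called 0. In NAc edgeR called 0 of 8 and 0.0544% of all genes, and DESeq2 called 0. Rgs2 had an unadjusted p under 0.05 (p = 0.0271, edgeR adjusted p = 0.510).

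At 24 h in NAc, Rgs2 stood at 7.38, 7.39, 7.66 and 7.79 log2 CPM in the 4 females and at 6.45, 6.51, 6.65, 7.03 and 7.27 in the 5 males. These libraries did not overlap between the sexes, whereas in saline the females ran from 6.50 to 7.61 and the males from 6.50 to 7.20. Rgs2 is shown because of its unadjusted p, and the separation was not particular to it. At 24 h in NAc, Rgs4 did not overlap either, with 7.87 to 8.42 in females and 7.21 to 7.76 in males. The share of all genes that separate in this way was not counted. For Rgs2, the effect in males minus that in females was -0.54 on the log2 scale at 24 h. It was 0.49 under chronic morphine and 0.29 at 2 weeks. The chronic libraries labelled female include number 27, which had the Y-linked Ddx3y at 6.28 in NAc. With that number counted as male, edgeR also called 0 of 8 members in the test of sex differences. The striatal marker score at 24 h was 7.997, 8.36, 8.66 and 9.01 in the females and 6.10, 6.94, 7.06, 7.60 and 8.26 in the males. With the score as a covariate, edgeR likewise called 0 of 8 members in this test.

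The test of whether the effects differed between NAc and PFC called 0 of 8 members and 0.0363% of the genes tested with edgeR. The count at an unadjusted p under 0.05 was 0, and DESeq2 called 0. Under chronic morphine, the effect in NAc minus that in PFC was 0.92 for Rgs14 and 0.54 for Rgs9 on the log2 scale, and the other 6 lay between -0.16 and 0.21. The lowest edgeR adjusted p of this test was 0.986, shared by 5 members.

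The other genes of the pathway were followed through lists. Over the 6 contrasts with saline, edgeR called 0 of the 9 or 10 other RGS genes tested (13 listed), 0 of the R7 partners (Gnb5, Rgs7bp, Rgs9bp, Gpr158 and Gpr179) and 0 of 10 G alpha subunits. The list of 15 receptors that couple to Gi had 1 call, Chrm4, the muscarinic receptor M4, which fell in PFC under chronic morphine by 0.73 on the log2 scale (SE 0.17, edgeR adjusted p = 0.0409). The median of the 14 receptors tested there was 0.34, with the opposite sign to this call.

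Between the regions, these lists were mixed. Their counts stand beside 36.5% of all genes tested called higher and 29.7% called lower in NAc. In NAc 6 of the 10 other RGS genes tested were higher and 2 lower, the 2 being Rgs5, a gene of pericytes, at -1.28 ± 0.09 and the R7 gene Rgs6 at -1.48 ± 0.09 (SE). Within the R7 family, Rgs6 and Rgs7 were thus lower in NAc, and Rgs9 and Rgs11 (0.47 ± 0.14, SE) higher. Of the 5 R7 partners 2 were higher and 2 lower, with Gnb5 at 0.58 ± 0.08 and Rgs9bp, the membrane anchor of Rgs9 in the retina, at -3.33 ± 0.44 (SE). Among the G alpha subunits 2 were higher and 6 lower. Gnal, the subunit that couples the dopamine receptor encoded by Drd1 in the striatum, was higher by 2.24 ± 0.11. Of the Gi-coupled receptors 7 were higher and 5 lower, Oprm1, the mu opioid receptor, among the higher at 3.13 ± 0.22 (SE). The genes named in this paragraph were chosen after their values were seen.

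The genes most like each member across libraries were listed as a description, over genes with a mean of at least 1 log2 CPM, and they share library, depth and dissection with the member. In NAc (32 libraries) Pearson's r was 0.985 between Rgs9 and each of Inf2 and Adcy5, an adenylyl cyclase of the striatum, and between Rgs14 and Lmo7 and Akap5 it was 0.984 and 0.982. Rgs8 was most like Atp2b2 (0.945) and Diras2 (0.931), and Rgs2 most like Kcnj2, a potassium channel (0.939), and Zswim6 (0.938). Rgs4 was closest to Rasgrp2 (0.907) and Cdk5r2 (0.901). The values were lower for Rgs10 with Ndufb10 (0.746) and Wdr55 (0.706), for Rgs7 with Fam19a5 (0.712) and Garnl3 (0.706), and for Rgs16 with Mgat2 (0.707) and Msmo1 (0.686).

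In PFC the closest genes depended on number 10 for several members. Without it (29 libraries), Rgs4 was most like Kcnv1 (0.917) and Gm11549 (0.858), Rgs8 like Pde1b (0.872) and Gad2 (0.870), Rgs16 like B4galt3 (0.856) and Fam43b (0.794), and Rgs7 like Car10 (0.847) and Chrm3 (0.840). Rgs10 was closest to Cnpy2 (0.811) and Sarnp (0.773), Rgs2 to Pgam1 (0.754) and Arf2 (0.751), and Rgs14 to Rfc5 (0.694) and Fkbp1b (0.683). With number 10 (30 libraries), the first gene was the same for Rgs4 and Rgs8. It was Chrm3 for Rgs7 (0.870), Nop16 for Rgs10 (0.993), Riox1 for Rgs16 (0.993), Dad1 for Rgs2 (0.864) and Ufsp2 for Rgs14 (0.818).

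Between members, Rgs9 and Rgs14 had the highest r in NAc, 0.926, and Rgs2 was at 0.879 with Rgs9 and at 0.886 with Rgs14. In PFC without number 10 the same pair stood at -0.22, and the highest value was 0.819, between Rgs4 and Rgs7. Rgs4 and Rgs7 were at 0.07 in NAc. These pairs were picked by their r, the difference between the regions was not tested, and PFC number 25 held the lowest value of both Rgs4 and Rgs7.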

How the data were processed

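Total RNA from tissue punches of PFC and NAc was sequenced in 62 mouse libraries of a series of 251 samples; the rat table was not used here. The values are raw read counts per gene, deposited by the authors as 1 table. The submitters' processing notes name FastQC, cutadapt, Trimmomatic, STAR, HISAT2, RSEM and the builds GRCm38 and Rnor_6.0, without versions or roles, and the strand setting of the counting is not given in the sources used here. Rows that name no gene held a median of 22.0% of all counts, of which reads aligned to several places were 14.7%, and were left out. Symbols were matched for 45143 of 46078 gene IDs, and the others held 0.0640% of the counts. Per-sample columns left unused numbered 0.

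Genes were kept with edgeR's filterByExpr on treatment-by-sex groups and scaled by TMM. Counts were tested with edgeR's quasi-likelihood test (edgeR 4.0.16, limma 3.58.1, R 4.3.3) in 1 fit per region, with effects averaged over the sexes, and in 1 fit over both regions for region differences. p-values were adjusted by Benjamini-Hochberg over all genes tested, at a threshold of 0.05. Levels are log2 CPM with a prior count of 2, so that 0 counts give a low negative value, and CPM per kb uses the union of a gene's exons (GENCODE M21). The SE is the size of the log2 difference or slope divided by the square root of the F statistic of its quasi-likelihood test. The 95% intervals extend to either side by that SE times a t quantile. The steps were checked on simulated data. Alternatives were DESeq2 1.42.0, its size factors, no low-count filter, a prior count of 0.5, an additive sex term, a replicate block, surrogate variables (sva 3.50.0), the striatal marker score as covariate and each library left out. All mouse libraries carry 1 batch label.

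The members and gene lists were chosen with earlier results of these data known. Named were all 8 members, at most the 3 genes of each other list with the smallest p among those called in a contrast between treatments, and the 2 genes most like each member in each region. Genes of the other lists named between the regions were chosen after their values were seen. The genes most like Rgs9 in PFC are not reported here.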

Additional observations from a re-analysis of the deposited data

Results flagged for a closer look

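Over 64 groups (8 genes in 8 groups of libraries), 12 had a highest or lowest library far from the others by Dixon's criterion, which chance alone meets in about 1 in 20 groups. PFC number 10, the 2-week library with the fewest counts, accounted for 6. It held 6.63 log2 CPM of Rgs2 (next 5.71), 6.35 of Rgs14 (next 5.49) and 6.31 of Rgs7 (next 6.66), and Rgs9, Rgs10 and Rgs16 were each at -3.96, which stands for 0 counts (next 2.82, 3.73 and 3.84).

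PFC number 25, under chronic morphine, had the lowest Rgs4 of its group at 7.96 (next 9.04) and the lowest Rgs7 at 6.12 (next 6.61). NAc number 25 had Rgs14 at 3.66 (next 6.11). NAc number 14, at 2 weeks, had Rgs8 at 8.40 (next 7.98) and Rgs16 at 1.95 (next 3.21). It also had the highest striatal marker score of its group, 8.88 (next 8.33). Over all NAc libraries, number 14 included, Rgs8 changed by 0.22 and Rgs16 by -0.20 log2 per unit of that score. Whether the score bears on the values of number 14 was not tested. NAc number 24, at 24 h, had Rgs16 at 4.21 (next 3.48).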

How the results depend on the processing

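Over all treatments, all 8 members differed between the regions, in the same direction and past the threshold, in each of the 544 recomputed region differences, over 68 alternatives each. Leaving out each library in turn gave counts of 8 to 8 for that comparison and of 0 to 0 for every treatment, sex and region-by-treatment comparison. Of 3200 recomputed treatment differences, 1 was called: with 2 surrogate variables, 1 member, Rgs2, was called between 24 h and 2 weeks in NAc (log2 difference 0.25, against 0.17). In 194 of them the sign differed from the reported one. Over all genes, DESeq2 called from 5 (PFC, 2 weeks against saline) to 691 (NAc, chronic morphine against saline) in the treatment comparisons. Alternatives that leave out the libraries that stand apart, treat number 27 as male, or use the level of BC023719 as a covariate were chosen after seeing the data, as were the slopes on the striatal marker score.

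Libraries of the regions share numbers, and the labels do not say that a number is an animal. Deviations of the 30 same-numbered pairs correlated from -0.04 to 0.29 (median 0.12), with 19 over 0.1 and 19 best with their own number, against a median of -0.04 over 95 other numbers. With the number as a replicate block, 8 members were called between the regions and 0 in the difference of treatment effects between regions. In PFC number 10, Rgs9, Rgs10 and Rgs16 had 0 counts, and the cause was not tested. The spread between NAc libraries limits Rgs9 and Rgs14, whose 95% intervals against saline reached 2.68-fold and 3.10-fold.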
